A study of Bos taurus with 9 samples.

Results

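The loci described here are the copies of bta-miR-143, bta-miR-199a-3p, bta-miR-199a-5p and bta-miR-214 in the extracellular vesicles (EVs) of bovine follicular fluid. They were taken by name: every locus that the study's table of known and homologous miRNA lists as bta-miR-143, bta-miR-145, bta-miR-199a, bta-miR-199b, bta-miR-199c or bta-miR-214, with any arm and any genomic copy. The rule gave 6 loci of the 249 in that table and of the 101889 loci deposited. No locus of the table was named bta-miR-145, bta-miR-199b or bta-miR-199c. For the first 2 families the table holds 1 locus each under a name from another species, chi-miR-145-3p and eca-miR-199b-3p, and these 2 loci are given beside the 6 members but are not counted among them.

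The samples were 9 small RNA libraries of EVs from follicles of the cow (Bos taurus): 3 from small (3–5 mm), 3 from medium (6–9 mm) and 3 from large (>9 mm) antral follicles. Ovaries came from cows with no treatment named, whose breed and age are not given in the sources used here. Fluid of follicles of 1 size was pooled on a collection day, so each library stands for a pool of follicles and not for an animal, and no label ties a library to its day. By the study's methods each of 3 collections gave fluid of every size, so the sizes share collections, but which libraries belong together is not given in the sources used here and the tests have no term for it. EVs were obtained by differential ultracentrifugation and passage through a 0.22 μm filter. The p-values below for differences between sizes rest on the spread between the 3 pools of a size. Those that compare genomic copies of a miRNA rest on counting noise only. Libraries are called by size and replicate as labelled: small 1, 2 and 4, medium 5, 6 and 8, and large 10, 11 and 12.

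A miRNA is cut from 1 of both arms of a hairpin transcript, loaded into an Argonaute protein, and guides it to mRNAs that match its seed. miR-143 and miR-145 are made from 1 primary transcript and are known from smooth muscle, where they favour the contractile state. miR-214 and the miR-199a copy beside it are made from a long non-coding RNA antisense to the dynamin gene DNM3. miR-199a and miR-214 are known from mesenchyme and fibroblasts. In the follicle such cells lie in the theca and stroma outside the basement membrane, whereas granulosa cells and the oocyte border the fluid.

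On the UMD3.1 bovine genome the loci formed 4 sites. The miR-143 locus (22 bases, plus strand) lay at chr7:62809359-62809380, and chi-miR-145-3p (21 bases, plus strand) began 1429 bases after it, at chr7:62810788-62810808. On the minus strand of chromosome 16, miR-214 lay at chr16:40485825-40485847, miR-199a-3p at chr16:40491615-40491636 and miR-199a-5p at chr16:40491653-40491675, so that miR-214 and miR-199a-3p began 5790 bases apart. The other miR-199a copy lay on the minus strand of chromosome 7, with the 3p arm at chr7:16508930-16508950 and the 5p arm at chr7:16508969-16508991. The eca-miR-199b-3p locus lay at chr11:98867681-98867702 on the minus strand. By name in RefSeq (assembly ARS-UCD2.0, from which no coordinates were taken), MIR143 and MIR145 lie within the gene LOC132345768, MIR214 and MIR199A-1 within DNM3, MIR199A-2 within DNM2 and MIR199B within DNM1.

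Counts per library over all deposited loci ranged from 8941598 to 14664460, but those on known and homologous miRNA ranged from 146617 to 3394554, which was from 1.43% to 26.9% of a library's counts. The share was lowest in large 11 and highest in small 4. Small 2 (1257402) had the fewest such reads of the small libraries, and large 12 (660594) the most of the large ones. Floors are therefore unequal: 3 counts, taken as the least that can be read, equal 0.923 normalized counts in small 1 and 21.3 in large 11. Normalized counts are on the CPM scale, relative to the summed count of known and homologous miRNA after TMM scaling, so every value below is relative to the other known and homologous miRNA of that library. Fewer EVs that carry a miRNA and less of it per EV cannot be told apart in such data.

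The members took 0.405% ± 0.275 (SD, n = 3) of all deposited counts in EVs of small follicles, 0.0405% ± 0.0298 in those of medium and 0.0238% ± 0.0262 in those of large follicles. Of the counts on known and homologous miRNA they took 1.71% ± 0.932, 0.649% ± 0.348 and 0.702% ± 0.233 in the same order. On the second scale the lowest small library (small 2, 0.638%) lay among the medium and large ones, so the sizes overlapped. miR-143 made up from 78.1% to 92.5% of the members' counts in every library, and the shares above are largely its own. Without miR-143 the other 5 loci took 0.155%, 0.0907% and 0.0654% of known and homologous counts in the same order.

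**Figure D1:**
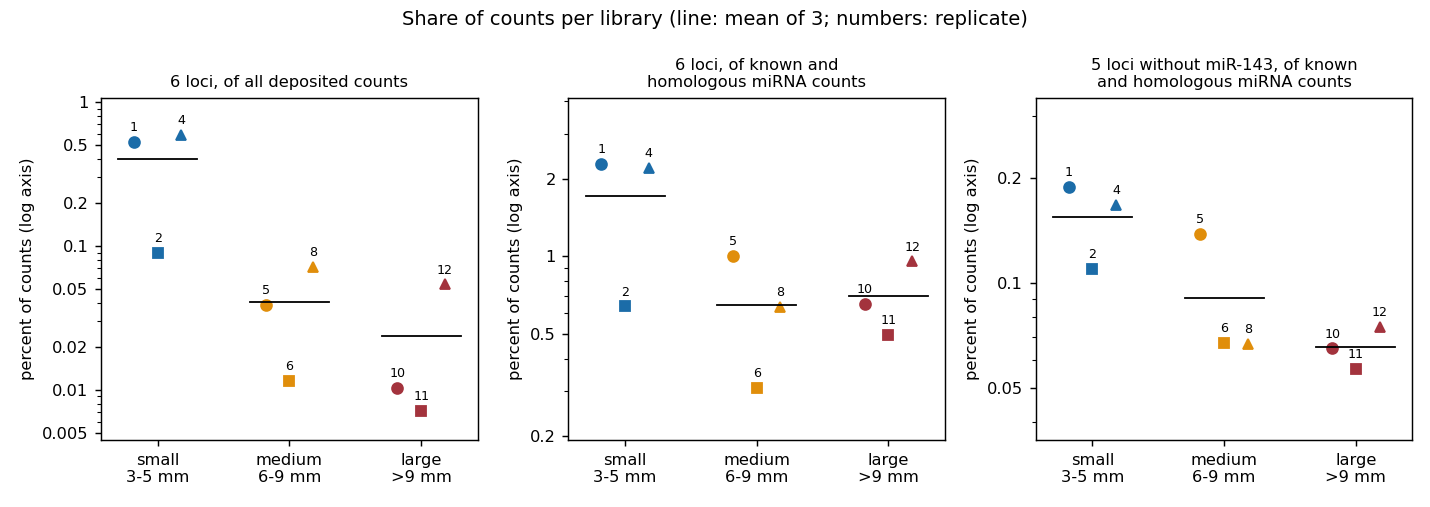
Percent of counts on the 6 loci in each library (log axis) by follicle size, of all deposited counts and of known and homologous miRNA counts, and on the 5 loci without miR-143; points are libraries, numbers are replicates and lines are means of 3. Small 2 lies at 0.638% in the middle panel, below the medium library 5 (1.00%) and the large library 12 (0.955%), while without miR-143 each small library lies above each large one.

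miR-143, the most abundant member, was 2.41 times lower by value in EVs of large than of small follicles, but the difference did not pass the test. Its counts were 71422, 6654 and 55922 in small 1, 2 and 4, 4047, 1053 and 6775 in medium 5, 6 and 8, and 907, 645 and 5816 in large 10, 11 and 12. Normalized, these were 21963, 5667 and 20346 in small, 7420, 2399 and 5709 in medium, and 5058, 4582 and 10287 in large follicle EVs. Small 1 and 4 stood above all other libraries, small 2 lay among the medium ones, and large 12 was higher than small 2. Among the 249 loci ranked by normalized count within a library, miR-143 was 12, 38 and 10 in small, 29, 65 and 35 in medium, and 39, 43 and 28 in large follicle EVs. The log2 fold change was −1.27 ± 0.56 (SE) for large versus small (edgeR quasi-likelihood test, FDR = 0.0860), −1.63 ± 0.56 for medium versus small (FDR = 0.137) and 0.36 ± 0.55 for large versus medium (FDR = 0.699). Without small 2 the first of these was −1.67 (FDR = 0.0248), and without large 12 it was −1.73 (FDR = 0.0345). Whether miR-143 was called thus depended on these libraries, and also on the threshold and the scale. With all 9 libraries it passed an FDR under 0.1. Scaled to the total of all deposited loci it was −4.09 (FDR = 0.00334), where 77.1% of all loci were called.

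chi-miR-145-3p, the arm of the miR-145 hairpin that is usually the less abundant, fell from small to large follicle EVs. Its counts were 612, 78 and 495 in small, 15, 8 and 38 in medium, and 1, 5 and 38 in large follicle EVs, and the single read in large 10 is under the floor. Normalized counts of 188, 66.4 and 180 in small and 27.5, 18.2 and 32.0 in medium follicle EVs did not overlap, while large 12 (67.2) was just above small 2. The log2 fold change was −1.86 ± 0.65 for large versus small (FDR = 0.0391) and −2.46 ± 0.64 for medium versus small, which did not pass (FDR = 0.0676). The first call was lost on leaving out small 1 (FDR = 0.114), small 4 (0.108), medium 5 (0.0566), large 10 (0.0719) or large 11 (0.0972), and in a fit of the small and large libraries alone (0.0527).

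**Figure D2:**
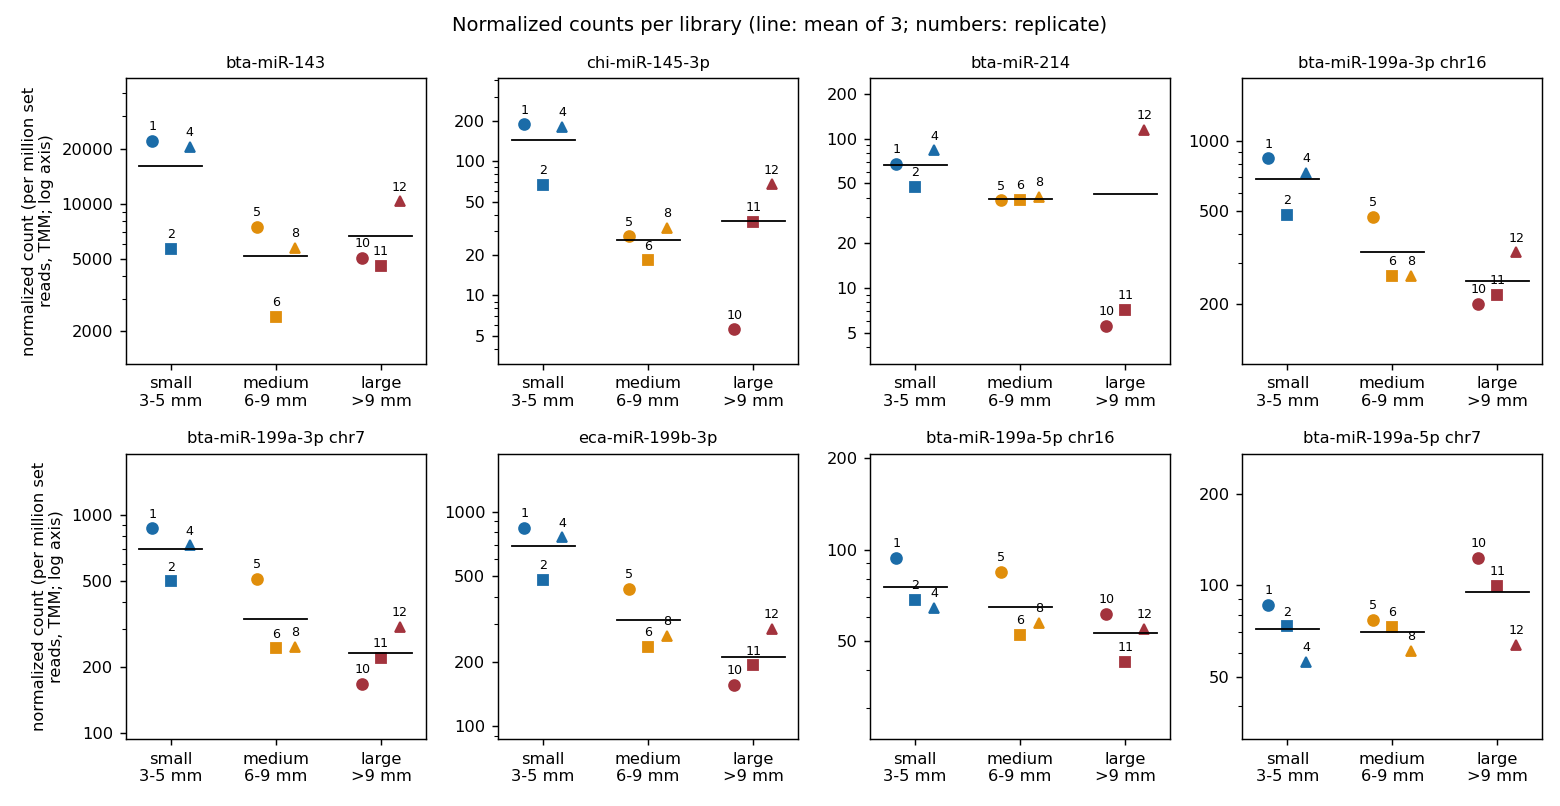
Normalized counts (CPM scale over known and homologous miRNA, TMM; log axes) of the 6 members and of the 2 loci named by homology in each of the 9 libraries, by follicle size; points are libraries, numbers are replicates and lines are means of 3. For the 3 loci of miR-199a-3p and miR-199b-3p each small library lies above each large one, whereas miR-214 in large 12 (115) lies above all others and in large 10 and 11 rests on 1 read each.

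The 3p arm of miR-199a, a miRNA known to act on MET and MTOR, fell from small to large follicle EVs at both genomic copies. Counts at the chromosome 16 copy were 2743, 569 and 2003 in the small, 259, 116 and 315 in the medium, and 36, 31 and 189 in the large libraries. Counts at the chromosome 7 copy were 2829, 583 and 1997 in the small, 278, 107 and 293 in the medium, and 30, 31 and 173 in the large libraries. The lowest small library was above the highest large one at both copies. As normalized counts, the chromosome 16 copy had 686 ± 183.3 (SD, n = 3), 335 ± 121 and 252 ± 72.1 in the 3 sizes in order, and the chromosome 7 copy 698 ± 188, 333 ± 153 and 231 ± 70.0. The log2 fold change for large versus small was −1.43 ± 0.39 on chromosome 16 (FDR = 0.0127) and −1.58 ± 0.42 on chromosome 7 (FDR = 0.0109), or 2.70 and 2.99 times lower. For medium versus small it was −1.04 ± 0.38 (FDR = 0.159) and −1.07 ± 0.40 (FDR = 0.170), which did not pass. On leaving out 1 library, the chromosome 7 copy was called in 9 of 9 cases and the chromosome 16 copy in 7 of 9, not without small 1 (FDR = 0.0555) or large 11 (FDR = 0.0525).

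These loci cannot be taken as separate measurements. The 9 counts of both copies of miR-199a-3p did not differ beyond counting noise (chi-square = 4.59, 9 degrees of freedom, p = 0.868), and their totals of 6261 and 6321 differed by 0.958%. eca-miR-199b-3p, on chromosome 11, had a total of 6254, and its counts did not differ from those of the other 2 loci either (p = 0.788). It was called with them, with a log2 fold change of −1.70 ± 0.40 for large versus small (FDR = 0.00678). How reads with more than 1 match in the genome were treated is not given in the sources used here, and reads of a mature miRNA with near-identical copies may have been divided among them, so the 3 calls amount to 1. With loci of the same name summed, miR-199a-3p was still lower in EVs of large follicles (log2 fold change −1.43 ± 0.38, FDR = 0.0133).

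The 5p arm of miR-199a passed no test between sizes. The chromosome 16 copy had counts of 305, 80 and 177 in the small, 46, 23 and 68 in the medium, and 11, 6 and 31 in the large libraries, and the chromosome 7 copy had 280, 86 and 154, then 42, 32 and 72, then 22, 14 and 36. Normalized counts on chromosome 16 were from 64.4 to 93.8 in small and from 42.6 to 61.3 in large follicle EVs and did not overlap, and on chromosome 7 they were from 56.0 to 86.1 and from 63.7 to 122.7 and did overlap. The log2 fold change for large versus small was −0.50 ± 0.43 on chromosome 16 (FDR = 0.361) and 0.38 ± 0.42 on chromosome 7 (FDR = 0.481). The signs differ, and in large follicle EVs the copies rest on 48 and 72 reads in all. Their counts over all libraries did not differ beyond counting noise (chi-square test, p = 0.219). Summed, the 5p arm had a log2 fold change of 0.10 ± 0.37 (FDR = 0.852).

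miR-214, which shares its primary transcript with the chromosome 16 copy of miR-199a, passed no test between sizes over the 9 libraries. Its counts were 219, 56 and 229 in small, 21, 17 and 48 in medium, and 1, 1 and 65 in large follicle EVs. Normalized counts were 67.3, 47.7 and 83.3 in small and 38.5, 38.7 and 40.4 in medium follicle EVs, which did not overlap, and 115 in large 12. Large 10 and large 11 held 1 read each, under the floors of 16.7 and 21.3 normalized counts in these libraries. miR-214 also met the read minimum of the table only in the small libraries. The log2 fold change for large versus small was −0.39 ± 0.75 (FDR = 0.704). Without large 12 it was −3.38 (FDR = 0.00635), without large 10 it was 0.08 and without large 11 it was 0.00, so the large libraries did not give 1 common value for this locus.

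**Figure D3:**
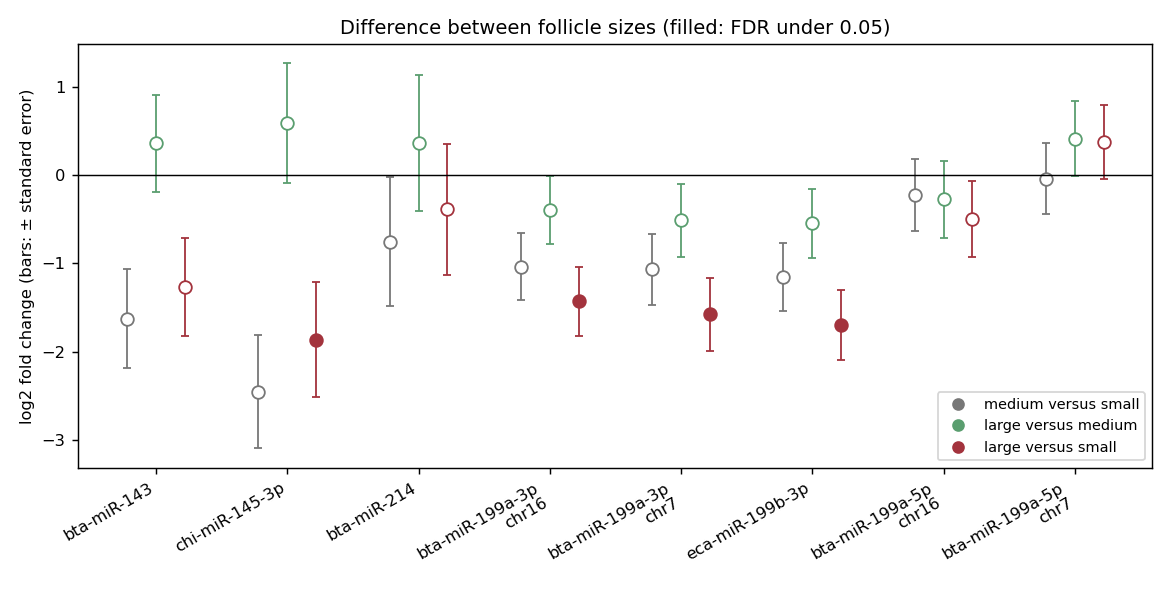
Log2 fold change (± SE; edgeR quasi-likelihood fit of the 9 libraries) of the 6 members and the 2 loci named by homology for medium versus small, large versus medium and large versus small follicle EVs; filled points have an FDR under 0.05. The filled points are the 3 loci of miR-199a-3p and miR-199b-3p and chi-miR-145-3p in large versus small (−1.43 to −1.86), and none is filled in the other comparisons.

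Counted over the members, 2 of 6 were called in large versus small follicle EVs, both lower, and both are copies of miR-199a-3p. Of the 249 loci tested, 42.2% were called in this comparison, 24.5% lower and 17.7% higher, so the members' count lies near the background. The median log2 fold change was −0.88 over the 6 members and −0.18 over the 249 loci. miR-214 and both miR-199a-5p copies, like chi-miR-145-3p, met the read minimum of the table only in the small libraries. For these loci the filter itself favours values that fall from small. In medium versus small follicle EVs 0 of 6 members were called by the quasi-likelihood test, against 0.0% of all loci, and 3 of 6 members and 44 of 249 loci had an unadjusted p under 0.05. All 6 members had a negative log2 fold change there, from −1.63 (miR-143) to −0.04 (miR-199a-5p on chromosome 7). Their median was −0.89 against −0.17 over all loci. The 6 values are not separate evidence of a fall. The filter favours it for the loci named above, and copies of a miRNA may share reads. In this comparison DESeq2 and edgeR's exact test also called 0 of 6 members, where they called 11.3% and 6.43% of all loci tested. In large versus medium follicle EVs 0 of 6 were called, where the background was 10.4% (4.82% lower and 5.62% higher), and 0 of 6 had an unadjusted p under 0.05. The median was 0.04 against 0.00 over all loci, and normalized counts overlapped for all 6 members, where 36.1% of all loci did not overlap (17.7% lower). For any difference among the 3 sizes 2 of 6 were called, where the background was 33.7%. Between small and large follicle EVs, normalized counts did not overlap for 3 of 6 members, all lower, where 53.0% of all loci did not overlap and 29.3% were lower. Between small and medium follicle EVs 2 of 6 members did not overlap, both lower, where the background was 28.5% (16.9% lower).

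The scale decides how large these differences appear. When counts were scaled to the total of all deposited loci instead of to known and homologous miRNA, the median of the 249 loci moved from −0.18 to −3.06 in large versus small, and all 6 members were called lower. Over all 249 loci, 44 were called higher and 61 lower on the first scale, against 1 higher and 191 lower on the second. Relative to the median of the set, miR-143 was −1.09 on the first and −1.03 on the second, and the chromosome 16 copy of miR-199a-3p was −1.25 and −1.22. The miR-199a-5p copy on chromosome 7 turned from 0.38 to −2.70, which was above that median on both.

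**Figure D4:**
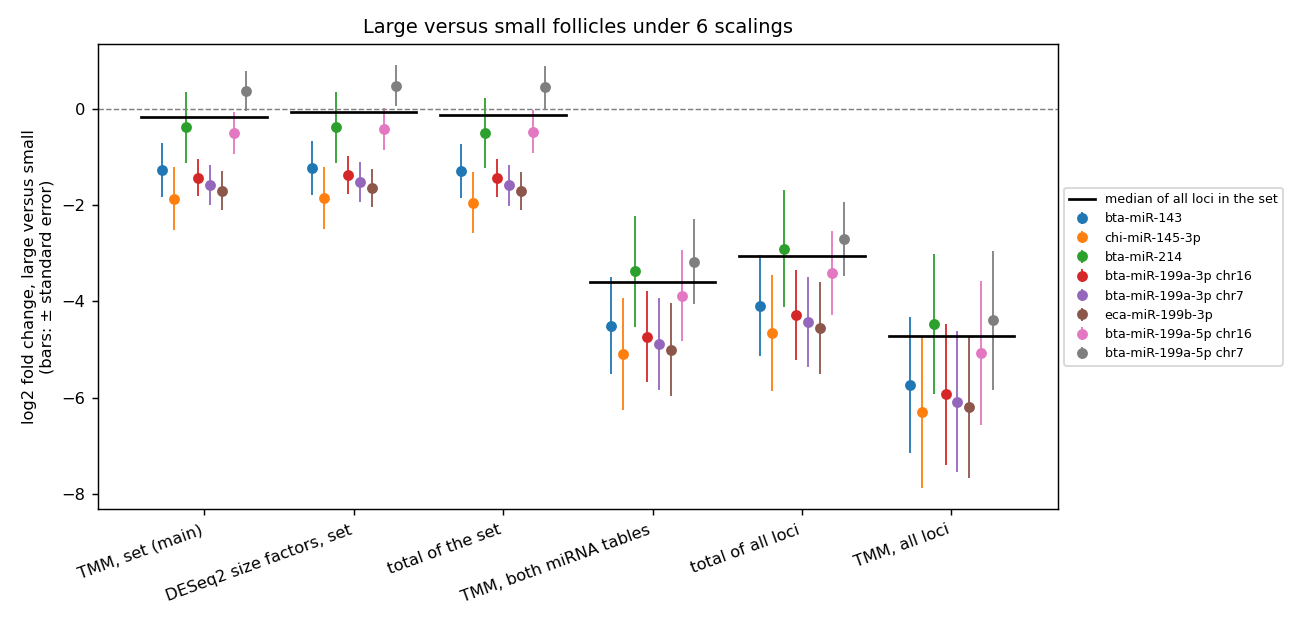
Log2 fold change (± SE) in large versus small follicle EVs of the 6 members and the 2 loci named by homology under 6 scalings; black bars are the median of the 249 known and homologous miRNA loci. The medians lie at −0.18, −0.07 and −0.13 where only these loci set the scale and at −3.60, −3.06 and −4.71 where other loci enter it, and the miR-199a-3p and miR-199b-3p loci, miR-143 and chi-miR-145-3p lie below the median in each.

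Ratios of 2 counts within a library need no scaling, and 4 were tested for a trend over the sizes. The ratio of miR-199a-3p to miR-199a-5p, with both copies summed, was 9.52, 6.92 and 12.1 in small, 6.07, 4.03 and 4.33 in medium, and 1.99, 3.05 and 5.37 in large follicle EVs. Each small library was above each medium and each large one, while medium and large overlapped. The geometric mean fell from 9.26 to 4.73 to 3.19, by 0.77 on the log2 scale for a step in size (exact permutation test of the trend, two-sided, p = 0.00714; adjusted over the 4 ratios, p = 0.0286). By pair, large versus small and medium versus small each had an exact permutation p of 0.1, the smallest that 3 libraries against 3 can give, and large versus medium had 0.3. The adjusted p went from 0.00714 to 0.0929 on leaving out 1 library, and was under 0.05 in 3 of 9 cases. Among the 14 hairpins of the table with a named locus for both arms, the ratio of the 3p to the 5p arm did not overlap between small and large follicle EVs in 9 and was lower in large in 8, and miR-199a, with a log2 difference of −1.54, had 2 hairpins below it.

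The other 3 ratios had no detectable trend. The ratio of miR-143 to miR-145-3p, both from 1 transcript, had geometric means of 104, 179 and 221 in small, medium and large follicle EVs (exact permutation p = 0.125, adjusted p = 0.25), and its value of 605 in large 10 rests on 1 read of miR-145-3p. The ratio of miR-199a-3p to miR-214 on chromosome 16 was 12.5, 10.1 and 8.73 in small, 12.1, 6.66 and 6.51 in medium, and 24.3, 21.0 and 2.89 in large follicle EVs (exact permutation p = 0.875). The lowest and the highest values of this ratio were thus both in large follicle EVs. miR-145-3p and miR-214 met the read minimum of the table only in the small libraries, so the filter favours low ratios to them there. The ratio of miR-143 to miR-199a-3p, the most counted loci of the 2 clusters, was 12.8, 5.77 and 14.0 in small, 7.53, 4.71 and 11.1 in medium, and 13.6, 10.3 and 16.05 in large follicle EVs (exact permutation p = 0.475, adjusted p = 0.633).

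**Figure D5:**
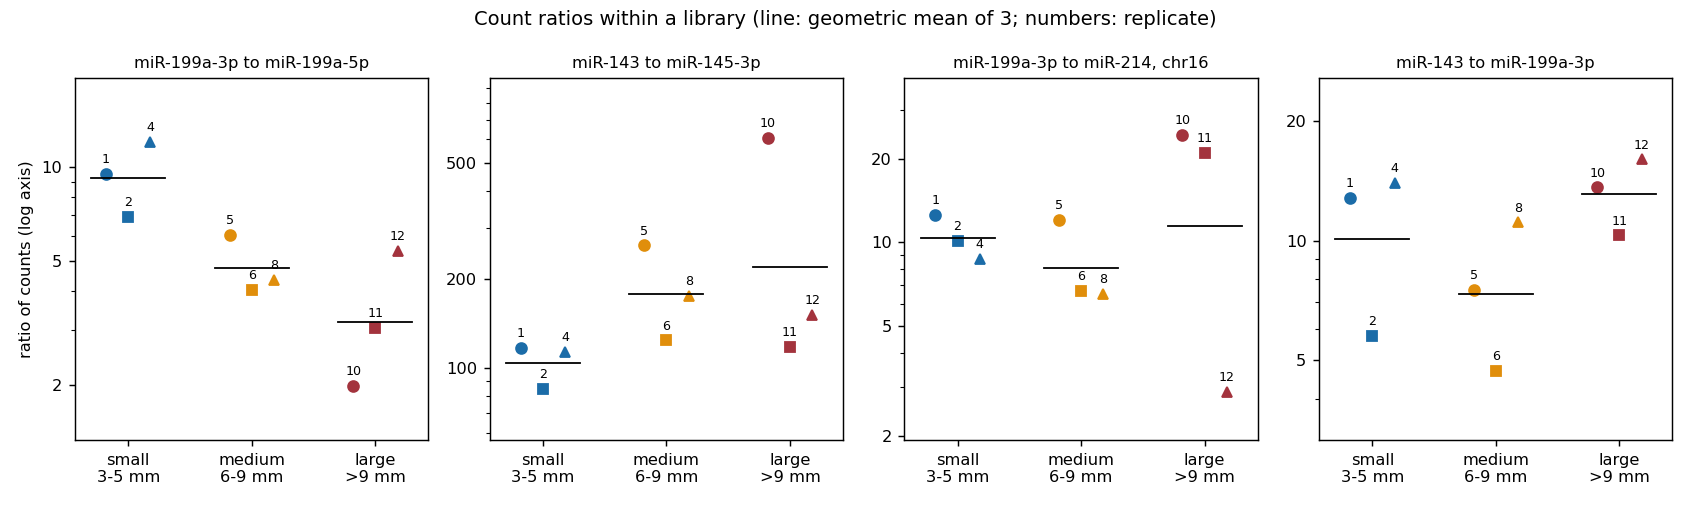
Ratios of counts within a library (log axes; 0.5 counts added to each) by follicle size for 4 pairs of miRNA; points are libraries, numbers are replicates and lines are geometric means of 3. In the first panel (miR-199a-3p to miR-199a-5p) the small libraries, from 6.92 to 12.1, lie above the large ones, from 1.99 to 5.37, and in the third the large libraries span from 2.89 to 24.3.

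The miRNAs whose normalized counts followed miR-143 most closely over the 9 libraries were miR-27a-3p (Pearson r = 0.91), miR-25 (0.85), miR-27b (0.85), miR-410 (0.80) and let-7c (0.80), where the median over the 241 loci outside these families was 0.04. For the chromosome 16 copy of miR-199a-3p they were miR-1388-5p (0.94), miR-130a (0.93), miR-215 (0.90), miR-27a-3p (0.90) and miR-27b (0.88), with a median of 0.13. miR-27a-3p and miR-27b were on both lists. Between the families, miR-143 had r = 0.82 with miR-199a-3p on chromosome 16 and r = 0.55 with miR-214, and miR-199a-3p had r = 0.76 with the 5p arm of its own hairpin on chromosome 16 and −0.42 with the 5p copy on chromosome 7. These values describe 9 libraries that share their sizes and their scaling.

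Other lists of miRNA known from cell types were compared on the same scale. Among 15 loci of other mesenchymal-lineage miRNA, 3 were called higher and 3 lower in large versus small follicle EVs. Of all 249 loci 42.2% were called in this comparison, 17.7% higher and 24.5% lower, so the calls of this list lie near the background. Both miR-125b loci had log2 fold changes of 2.06 and 2.00 (FDR = 0.00114 and 0.00100), opposite to miR-199a-3p. They are copies of the same miRNA, so their calls may not be separate. miR-21-3p was lower (−1.95, FDR = 0.00679). Scaled to the total of all deposited loci, the miR-125b loci were at −0.86 and −0.94 and miR-21-3p at −4.68. miR-125b was thus higher only relative to other known miRNA. Of the list, miR-218 and miR-490 had no locus in the table.

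Of 4 loci of miRNA known from blood cells, 3 were called higher in large versus small follicle EVs, where 17.7% of all loci were. They were miR-150 (log2 fold change 5.68, FDR = 0.00132), miR-486 (3.29, FDR = 0.00548) and miR-142-5p (2.25, FDR = 0.00374). The summed normalized counts of the 4 loci ranged from 490 to 2492 in the small, 1534 to 2932 in the medium and 7144 to 15499 in the large libraries, and the defining miR-144 and miR-223 had no locus in the table. Under the total of all deposited loci, miR-150 remained higher (3.14), miR-486 was 0.92 (−0.46 with TMM of all deposited loci) and miR-142-5p turned to −0.58. The members' own sums ranged from 6838 to 23924, from 3071 to 8604 and from 5172 to 11160 in the 3 sizes. On the scale of known and homologous miRNA, the summed blood-cell loci were higher in large than in small follicle EVs, whereas miR-199a-3p was lower. A link between them was not tested.

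Among 8 loci linked to granulosa cells, 1 was called higher (miR-132, log2 fold change 4.10, FDR = 0.00659) and 3 lower in large versus small follicle EVs, with miR-378c at −2.23 (FDR = 0.00902) and miR-378 at −1.27 (FDR = 0.0109). Among 5 epithelial loci, miR-182 was higher (1.40, FDR = 0.0440) and miR-429 lower (−2.34, FDR = 0.0206), and the endothelial miR-126 was not called. Of all 249 loci 17.7% were called higher and 24.5% lower. Without a locus in the table were miR-212 and miR-383 of the granulosa list and miR-200c, miR-96 and miR-183 of the epithelial list. Scaled to the total of all deposited loci, miR-182 turned to −1.26, whereas miR-132 (1.64), miR-378c (−5.14), miR-378 (−4.23) and miR-429 (−5.15) kept their sign.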

How the data were processed

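Small RNA libraries (TruSeq) of follicular fluid EVs were sequenced on an Illumina HiSeq. The authors removed 3′ adapters, mapped reads with BWA 0.7.5a to UMD3.1, merged the reads of the 9 samples to define loci, removed loci with fewer than 45 reads per base on average, and deposited the raw count of each library at each locus, taken over its effective region (bases with enough of the locus's peak depth). These counts are not normalized. The study's miRNA table then kept loci whose mean read count reached a set minimum in any follicle size. Mean counts in the small, medium and large libraries were 168, 28.7 and 22.3 for miR-214 and 395, 20.3 and 14.7 for chi-miR-145-3p. For miR-199a-5p they were 187, 45.7 and 16.0 on chromosome 16 and 173, 48.7 and 24.0 on chromosome 7. These loci met the minimum only in the small libraries. No sample column was left out.

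The members and the lists of miRNA were chosen with earlier results of these data known. Named loci were all members, both loci named by homology, the 5 loci most like miR-143 and miR-199a-3p, and up to 3 called loci per list with the largest change. In R 4.3.3 with edgeR 4.0.16, the 249 known and homologous loci were scaled by TMM, 1 model of the 3 sizes was fitted (common dispersion 0.1645), and pairs of sizes were compared by the quasi-likelihood test (two-sided), adjusted by Benjamini-Hochberg over the 249 loci (FDR under 0.05). A fold change is positive where the first-named size is higher. Ratios had 0.5 counts added and were tested by exact permutation, likeness used log2(normalized count + 1), and floors and intervals (95%, Wilson) cover counting error only. Other steps used pandas 2.3.3, scipy 1.17.1 and numpy 2.4.6 under Python 3.11.15, and figures matplotlib 3.10.9.

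The alternatives tried were DESeq2 1.42.0, edgeR's exact test, DESeq2's size factors, the total of the set, TMM over both miRNA tables, the total and TMM of all deposited loci, filterByExpr (which kept all 249), an FDR under 0.1, a fit of 2 groups, loci of the same name summed, and leaving out each library. Adding neighbouring loci, and the miR-199b hairpin to the arm ratio, were chosen after seeing the data. Mature sequences were not analysed here.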

Additional observations from a re-analysis of the deposited data

Results flagged for a closer look

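Reads were also counted at 3 loci outside the table, each within 200 bases of a locus described above and on the same strand, where the opposite arm of its hairpin would lie. They are flagged because they hold a signal in data that the comparisons do not use. Mean counts in the small libraries, the highest of any size, were 80.7, 82.0 and 32.3 beside miR-145-3p, miR-199b-3p and miR-214. These are under the read minimum of the table. No control sample exists. Each total over the libraries is above 3 counts, but single libraries held as few as 0 or 1.

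The locus 17 bases from chi-miR-145-3p, at chr7:62810748-62810770, had a total of 300 counts: 91, 40 and 111 in the small, 10, 0 and 3 in the medium, and 0, 8 and 37 in the large libraries. It lies on the 5′ side of the hairpin, the side of miR-145-5p, which is usually the main arm. Of the reads on both sides it held 17.0% (95% Wilson interval 15.1 to 19.0) in the small, 17.6% (10.6 to 27.8) in the medium and 50.6% (40.4 to 60.7) in the large libraries, and 8 of 14 reads without large 12. These intervals cover counting error in pooled reads, not the spread between libraries. By library, 5′ to 3′ reads were 91 to 612, 40 to 78 and 111 to 495 in small. They were 10 to 15, 0 to 8 and 3 to 38 in medium, and 0 to 1, 8 to 5 and 37 to 38 in large. The 3′ locus met the read minimum only in the small libraries, which favours a low 5′ share there. Tested with the 249 loci, the 5′ locus had a log2 fold change of 0.33 for large versus small (FDR = 0.808). It was −2.35 for medium versus small (FDR = 0.254) and 2.68 for large versus medium (FDR = 0.108), and no comparison called the locus.

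The locus 16 bases from eca-miR-199b-3p, at chr11:98867719-98867741, had a total of 338 counts, and held 4.37% of the reads on both sides in the small, 8.91% in the medium and 11.5% in the large libraries. Adding both sides of this hairpin to miR-199a left the fall of the 3p to 5p ratio in the same direction. The locus 18 bases from miR-214, at chr16:40485866-40485887, had a total of 130 counts, and held 16.1%, 23.2% and 9.46% in the same order, the last being 33.3% (1 of 3 reads; interval 6.15 to 79.2) without large 12. For neither was a difference between sizes called. Pooled shares weight the deepest library of a size most, and were not tested.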

How the results depend on the processing

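No paired analysis was possible because the sizes share no replicate number and no source used here says which libraries come from 1 of the collections that all sizes share. In large versus small, 6 members were called with TMM over both miRNA tables, 6 with the total and 6 with TMM of all deposited loci. These scalings called 87.6%, 77.1% and 93.2% of all loci tested. With same-name loci summed, 1 was called. Leaving out 1 library gave 1 to 4. It was 1 without small 1 or large 11 (25.3% and 27.7% of all loci called) and 4 without large 12 (42.2%). In medium versus small the same 3 scalings called 3, 3 and 4 (40.6%, 23.7% and 43.8% of all loci). For any size they called 6, 5 and 6 (81.9%, 67.5% and 86.7%), and 1 was called when summed. Leaving out 1 library there gave 0 to 4. It was 0 without small 1, small 4, large 10 or large 11 (15.7%, 25.7%, 25.7% and 15.3% of all loci). Without large 12 it was 4 (32.5%). In large versus medium 0 were called throughout. Where other loci entered the scale the median of the set moved. Known and homologous miRNA held 14.1% to 26.9% of all counts in the small and 1.43% to 5.65% in the large libraries. The cause of these changes was not tested. Known miRNA reads in large 10 and 11 limit miR-214, miR-145-3p and miR-199a-5p most.

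Of 516 alternatives for single loci and pairs of sizes, 446 kept direction and side of the threshold, 33 came to pass it, 8 no longer passed it and 29 turned. In large versus small, miR-214 was 0.077 and 0.0027 without large 10 and 11 (−3.38 to 0.077 on leaving out 1 library); miR-199a-5p summed was 0.10, and its chromosome 7 copy was −3.18, −2.70 and −4.40 under TMM of both tables and the total and TMM of all loci. In medium versus small that copy was 0.075 (DESeq2), 0.078 (its size factors), 0.10 (total of the set), 0.087 (2 groups), 0.12 (without small 1) and 0.06 (without medium 8), from −0.11 to 0.12 on leaving out 1 library. In large versus medium, under the same 3 scalings, it was −1.25, −0.95 and −1.57, miR-214 −0.74, −0.40 and −0.89, miR-143 −1.01, −0.70 and −1.31, and chi-miR-145-3p −0.82, −0.49 and −1.11; without large 12 the last 3 were −2.63, −0.10 and −0.45 (highest on leaving out 1 library 0.83, 0.71 and 1.04), and summed miR-199a-5p was 0.12. The difference of medians of the log2 ratio of miR-143 to miR-145-3p was −0.22.

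The slope of the miR-199a 3p to 5p ratio lay between −0.96 and −0.63 on leaving out 1 library. That of miR-199a-3p to miR-214 was −0.058 with a pseudocount of 1, −0.0058 with the chromosome 7 copy, and from −0.21 to 0.49 on leaving out 1 library. Of counts at loci of 18 to 30 bases the members took 0.769%, 0.111% and 0.0836% by size; without miR-143 they took 0.0346% and 0.00512% of all counts in small and medium, and 0.155%, 0.0907% and 0.0654% of known and homologous counts; without the 10 highest-count other loci the latter were 3.35%, 1.20% and 1.22%. On leaving out 1 library the shares of all counts ranged from 0.310% to 0.563%, 0.0252% to 0.0550% and 0.0087% to 0.0322%, and of known and homologous counts from 1.43% to 2.25%, 0.471% to 0.819% and 0.575% to 0.804%.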
